A study of Mus musculus with 6 samples.

Results

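The regions described here are the ends of transcripts in gene loci for which more than 1 end was listed. The deposited lists of the 6 tumours were pooled, each event of the type that marks a transcript end was kept once, and a locus was retained when it had at least 2 distinct ends over all tumours. This gave 2994 loci with 8356 ends, which is 23.3% of the 12841 loci with any listed end and 45.9% of the 18203 ends. The share of an end is its abundance in FPKM (fragments per kilobase of transcript, scaled to the number of fragments mapped) as a percentage of the summed FPKM of all listed ends of its locus in the same tumour. The tumours were subcutaneous xenografts of A375, an established human melanoma cell line labelled wild type, in BALB/c nude mice, a strain without a working thymus. When the tumours reached about 100 mm3, mice were divided into groups of 5, and ZLD1039 at 100 mg/kg or vehicle alone was given by gavage each day for 27 days. ZLD1039 is an inhibitor of EZH2, the enzyme of Polycomb repressive complex that methylates histone H3 and keeps genes silent. From each group 3 tumours taken on day 27 were sequenced, and all stem from this 1 cell line.

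A transcript ends where the cleavage and polyadenylation machinery recognises a signal in the nascent RNA, cuts it and adds a poly(A) tail. A gene can carry several such signals. Signals in successive positions of 1 last exon give 3′ untranslated regions of different length, and signals in an earlier intron or in a different last exon give transcripts that differ in their coding sequence as well. Ends near the promoter are called proximal and those far from it distal. Proximal ends are known to be favoured in proliferating and many transformed cells, where they remove binding sites for microRNAs and RNA-binding proteins.

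Most of these loci relied on 1 end, and that end was usually the most distal. In 1939 loci abundant enough to compare and with ends at different coordinates, the distal end was the most abundant in 72.9%. The mean share of the distal end was 68.9% ± 0.387 (SD, n = 3) in vehicle tumours and 68.6% ± 0.494 (SD, n = 3) in ZLD1039 tumours. Distal shares averaging over 1% and under 99% were tested in 1550 loci. Limma with adjustment over all of them called no locus, though some alternative settings called 1 to 4. In a locus on chromosome 19, 1 end measured 24.98 to 31.9 FPKM in the vehicle tumours. In all 3 ZLD1039 tumours it had a value of 0, which is also given to an end missing from a list. Ends listed in all vehicle and no ZLD1039 tumours made up 0.171% of the ends tested for abundance, against 0.233% of all events.

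Loci with 2 ends numbered 1670, those with 3 ends 732 and those with 4 ends 339. A further 253 loci had 5 or more ends, up to 11 in 3 loci. Of the 2994 loci, 2918 carried an Ensembl gene identifier. Their share of the loci with any end ranged from 16.9% on chromosome 20 to 28.3% on chromosome 19 among chromosomes 1 to 22 and X. The files pair no identifier with a gene name, so loci are described by position, which is given as in the files.

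Each listed end covers 1 terminal exon, and the listed ends of a locus differ in the splice acceptor at which that exon begins. No pair of ends of 1 locus shared an acceptor. Successive cleavage sites within a single last exon, the most familiar form of alternative polyadenylation, are therefore not separated in these data. What follows concerns different terminal exons listed for 1 locus. Whether all ends of a locus belong to 1 gene could not be checked without an annotation. Proximal and distal describe position within the locus. The terminal exons had a median length of 424.5 bases, with quartiles of 202 and 1101 bases. The 3′ coordinates of the most proximal and most distal end lay a median of 9952 bases apart, with quartiles of 2764 and 29199 bases. In 1060 loci the distance was 1 to 10 kb and in 1299 loci 10 to 100 kb. It exceeded 100 kb in 194 loci and reached 777287 bases. In 191 loci all ends stopped at the same coordinate and differed only in where the last exon began.

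End regions did not overlap in 2196 loci (73.3%), with a median distance of 13440 bases between the outer ends. In 372 loci (12.4%) each region overlapped its neighbour. The median distance in these overlapping loci was 0 bases, and their exons were longer, with a median of 1063 bases against 379 in loci with separate regions. The remaining 426 loci (14.2%) held ends of both kinds and are called mixed.

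Several ends were listed more often on the minus strand. On this strand 1963 of 5591 loci with an end had at least 2, or 35.1%, against 1031 of 7250, or 14.2%, on the plus strand. Within single tumours the minus strand had 32.0% to 33.1% and the plus strand 11.8% to 12.4%, so that the ranges of the 6 tumours did not overlap. The difference was present at every level of abundance. Of loci at 20 FPKM or more, 42.3% on the minus strand and 18.2% on the plus strand had several ends, and of those under 1 FPKM 16.1% and 7.48%. Other events differed less, or the other way, by strand. The mean number of starts per locus was higher on the plus strand, at 2.80 against 2.43, and the number of included exons per locus was 2.61 and 2.63. The completeness of the lists moved with strand too. The abundance of a locus, taken as the largest of its summed starts, its summed ends and its largest event, was covered by the listed ends to a median of 99.7% on the minus strand and 84.6% on the plus strand. The part of this in the strand difference was not tested.

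**Figure D1:**
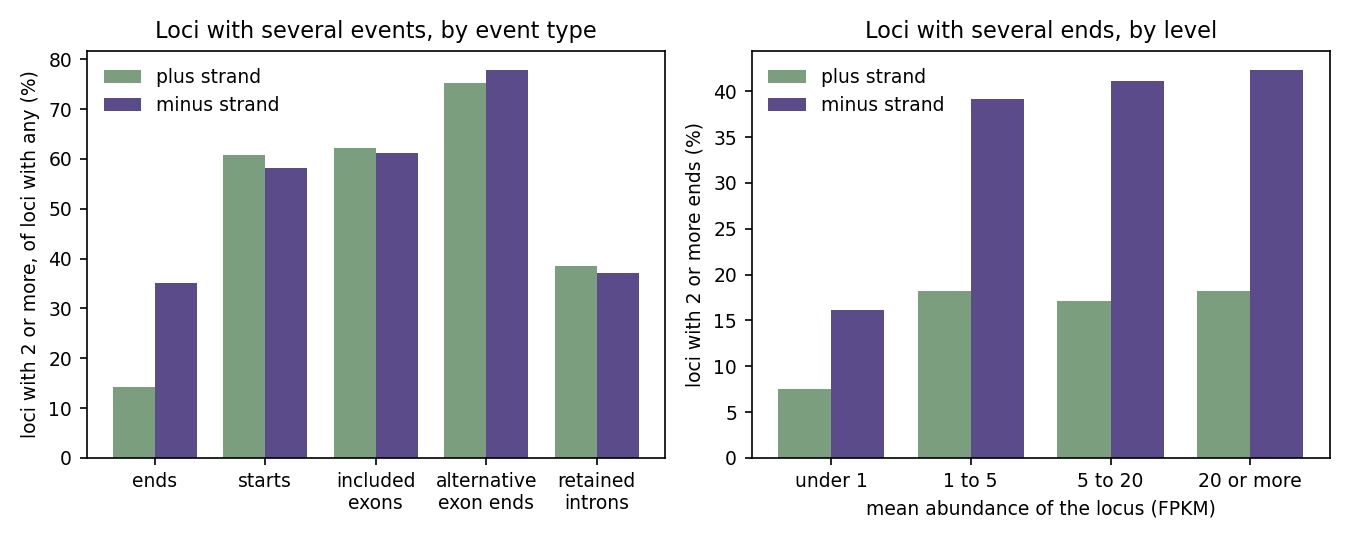
Percentage of loci with 2 or more listed events of a type, among loci with at least 1, by event type and strand (left), and percentage of loci with 2 or more transcript ends by mean abundance of the locus in FPKM and strand (right). Bars count loci over the 6 tumours pooled. Ends differ by strand, 14.2% against 35.1%, while starts, included exons, alternative exon ends and retained introns do so by less than 3 percentage points.

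Over all loci with several ends the listed ends covered a median of 98.1% of the abundance of the locus. In 1977 loci (66.0%) they covered at least 80%, and in 558 (18.6%) under 20%. A share in such loci describes the listed ends and not all transcripts. Of the 8356 ends, 4645 (55.6%) were listed in all 6 tumours and 1454 (17.4%) in 1 tumour only. In loci with a single end, 53.2% of ends were listed in all tumours. Within 1 tumour 2017 to 2155 loci had at least 2 ends. Of the loci with 2 ends, 594 had both ends listed in every tumour and 500 owed their second end to 1 tumour. Loci with several ends were more abundant, with a median of 7.05 FPKM against 3.63 FPKM in loci with 1 end. They had a mean of 2.75 starts against 2.46. By level, 10.4% of loci under 1 FPKM had several ends. The percentage changed little above that, at 28.2% from 1 to 5 FPKM, 28.5% from 5 to 20 FPKM and 29.7% from 20 FPKM.

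Shares were compared in the 2061 loci (68.8%) whose summed ends averaged 1 FPKM or more and exceeded 0 in every tumour. They hold 6130 ends. The most abundant end of a locus, here called its leading end, had a median abundance of 6.06 FPKM and a median share of 92.3%. The other ends had a median abundance of 0.174 FPKM and a median share of 2.95%. A second end with a share of 20% or more was present in 442 loci (21.4%). Leading ends were longer, with a median of 814 bases against 366 bases for the others. In 1577 loci (76.5%) the same end led in all 6 tumours. This held for 61.2% of loci at 1 to 5 FPKM, 85.7% at 5 to 20 FPKM and 87.4% at 20 FPKM or more. It also fell with the number of ends, from 82.6% of loci with 2 ends to 62.1% of those with at least 5. The spread between tumours of 1 group followed the level in the same way, with a median SD of the share of 11.9, 5.08 and 4.51 percentage points in the 3 classes of abundance.

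The loci with the highest summed ends show the same reliance on 1 end. The highest was on the minus strand of chromosome 6. Its distal end, at 74225473 to 74227657, measured 2272, 3405 and 3503 FPKM in the vehicle tumours and 3463, 4271 and 3235 FPKM in the ZLD1039 tumours. That end held at least 99.8% of the summed ends in every tumour, and the groups overlapped. Distal ends held between 98.2% and 100% of the sum in each tumour in 5 further loci of the 10 highest: on chromosome 14 at 102547075 to 102548158, chromosome 19 at 54711266 to 54711515, chromosome 11 at 17095936 to 17096013, chromosome 15 at 64448011 to 64448344 and chromosome 1 at 67878899 to 67878946. A locus on chromosome 8 instead used an internal end, at 101715144 to 101715587, for 90.8% to 99.8% of the sum.

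In 2 of the 10 loci 1 tumour departed from the rest. On chromosome X the end at 71491892 to 71492622 measured 244 to 288 FPKM in all tumours. A distal end 16363 bases further on, at 71475529 to 71475904, was listed at 372 FPKM in ZLD1039 tumour 1 and in no other tumour, where it became the leading end with a share of 60.2%. On chromosome 3 a terminal exon of 125 bases, at 101399935 to 101400059, shares its 3′ coordinate with one of 1402 bases. The longer form measured 74.3 FPKM in vehicle tumour 2 and 2.10 to 6.57 FPKM in the other 5 tumours. In the remaining locus, on chromosome 7, the tumours differed more widely. There a pair of ends stop at coordinate 26229547. The exon of 534 bases measured 25.8, 4.65 and 51.6 FPKM in the vehicle tumours and 6.56, 56.1 and 148 FPKM in the ZLD1039 tumours, while the exon of 2412 bases stayed between 316 and 486 FPKM. The groups overlapped for the shorter exon.

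Loci with the most ends divided the abundance in different ways. A plus-strand locus on chromosome 14 had 11 ends spread over 298510 bases. One of them, at 61434947 to 61436671, held a mean share of 87.4%, with a range of 78.3% to 96.8% over the tumours. A minus-strand locus on the same chromosome, also with 11 ends, divided its abundance mainly between a pair of overlapping ends. The end at 74752717 to 74753519 held a mean of 51.3% and that at 74752126 to 74753232 a mean of 32.2%. On chromosome X a locus of 10 ends at 39.6 to 63.5 FPKM used 3 ends far apart. Its end at 153194695 to 153195676 held a mean of 52.5%, that at 153172821 to 153173416 a mean of 27.2% and the most distal, at 153126973 to 153128349, a mean of 19.1%. A locus of 10 ends on chromosome 15 had its distal end at 75648133 to 75648373 lead in every tumour, with shares of 52.6% to 59.0%. In the third locus with 11 ends, on chromosome 16, the shares of single ends moved widely between tumours. The end at 2141824 to 2141907 ranged from 0.129% to 65.5%, and the listed ends covered 46.7% of the abundance of the locus.

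A proximal and a distal end could be told apart in 1939 of the 2061 loci, and in the other 122 all ends stopped at 1 coordinate. The distal end led in 1413 loci (72.9%), the proximal end in 278 (14.3%) and an end between them in 248 (12.8%). In the 870 loci with 2 ends the distal end led in 78.4%. In the 1069 loci with 3 or more it led in 68.4%, an internal end in 23.2% and the proximal end in 8.42%. The distribution of the distal share had a peak at each extreme. It was above 90% in 941 loci (48.5%), under 10% in 290 (14.96%) and between these bounds in 708 (36.5%), with a median of 89.0%.

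**Figure D2:**
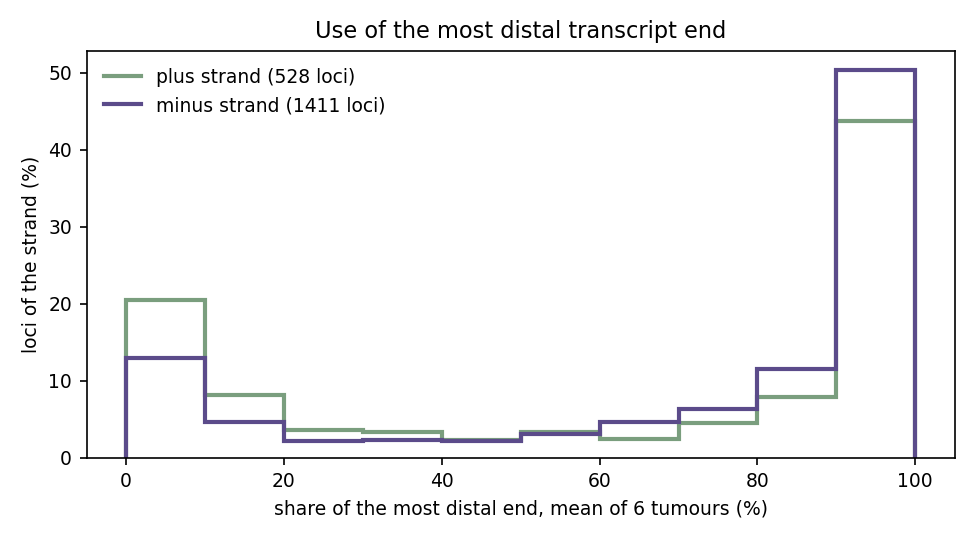
Distribution of the share of the most distal end, as the mean of the 6 tumours in percent (horizontal axis, bins of 10 points), over the loci of each strand (vertical axis, percentage of the loci of that strand). Both strands have their highest bin above 90% and a second, lower peak under 10%, which holds more of the plus-strand loci.

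Distal terminal exons were also the longer ones. Their median length was 793 bases, against 374 for proximal and 303 for internal exons. Length and position could be set against each other in the loci with 2 ends. Where the distal exon was the longer (604 loci) it led in 84.6%, and where the proximal exon was the longer (265 loci) the distal end still led in 64.2%. The preference for the distal end differed among classes of loci. It led in 76.7% of 1411 minus-strand loci and 62.7% of 528 plus-strand loci. It led in 76.3% of loci with separate regions, 64.9% of mixed loci and 56.5% of the 124 with overlapping regions. By distance the distal end led in 60.6% of loci with ends under 1 kb apart, 78.2% at 1 to 10 kb, 72.6% at 10 to 100 kb and 58.6% above 100 kb. Coverage moved with it as well: the distal end led in 78.5% of loci whose listed ends covered at least 80% of the locus and 52.2% of the others. These are counts of loci over the same tumours, with no test across loci.

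The loci with the widest gaps between ends showed both patterns. The widest, on the minus strand of chromosome 1, placed its ends up to 777287 bases apart. Its distal end at 97543299 to 97544702 measured 7.80, 7.97 and 7.63 FPKM in vehicle and 6.82, 4.13 and 7.56 FPKM in ZLD1039 tumours, with shares of 81.9% to 99.9%. On the minus strand of chromosome 5 the distal end at 107194736 to 107197561 held 88.9% to 99.9% of the sum. In another chromosome 5 locus no end led throughout: the proximal exon at 69796604 to 69796730 measured 3.07, 1.495 and 1.25 FPKM under vehicle and 1.30, 1.12 and 0 FPKM under ZLD1039. The distal exon at 69390486 to 69390850 was listed only in vehicle tumour 3 at 1.20 FPKM and in ZLD1039 tumours 2 and 3 at 1.36 and 1.79 FPKM. On the plus strand the 3 widest gaps, 530681 to 745639 bases, were in loci whose listed ends summed to a mean of at most 1.06 FPKM.

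The comparison of ZLD1039 with vehicle asks whether inhibition of EZH2 moved transcripts between ends. Mean distal share was 68.7%, 68.6% and 69.3% in the 3 vehicle tumours and 68.5%, 68.1% and 69.1% in the 3 ZLD1039 tumours. The groups overlapped, and the difference of -0.333 percentage points gave p = 0.4 in an exact two-sided permutation test, or 0.6 after Benjamini-Hochberg adjustment over the 6 measures compared. With 3 tumours against 3 this test cannot give less than 0.1. In loci with separate regions the means were 72.2% ± 0.430 and 71.6% ± 0.590 (SD, n = 3 each; exact permutation p = 0.3, adjusted 0.6). In loci with overlapping regions they were 56.3% ± 0.817 and 55.6% ± 1.86 (SD, n = 3 each; exact permutation p = 0.9, adjusted 0.9). The 362 mixed loci went the other way and did not overlap, with 59.81%, 59.96% and 60.03% under vehicle and 60.53%, 60.27% and 61.33% under ZLD1039. Their difference of 0.777 points had an exact permutation p of 0.1 and was not among the 6 measures adjusted together. Loci were also classed by strand, number of ends, distance, abundance and coverage, without adjustment over the classes. No other class reached 0.1 in this test. Mean end position, which runs from 0 at the proximal to 1 at the distal coordinate, was 0.764 and 0.762 (exact permutation p = 0.5, adjusted 0.6).

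The largest share of a locus in each tumour, whichever end held it, was averaged over loci. This mean was higher in every ZLD1039 tumour than in any vehicle tumour, though by little. It was 87.42%, 88.24% and 88.26% under vehicle and 88.39%, 88.46% and 88.28% under ZLD1039. The difference of 0.402 percentage points had p = 0.1, the smallest this exact permutation test can give, and an adjusted p of 0.6. Without vehicle tumour 1, the lowest, it was 0.106 points. The number of these ends listed was 6297, 6114 and 6199 under vehicle and 6122, 5985 and 6279 under ZLD1039 (exact permutation p = 0.5, adjusted 0.6). By strand, mean distal share was 61.5% ± 0.649 and 60.9% ± 1.28 on the plus strand and 71.7% ± 0.541 and 71.4% ± 0.299 on the minus strand (SD, n = 3 each). Both pairs overlapped.

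**Figure D3:**
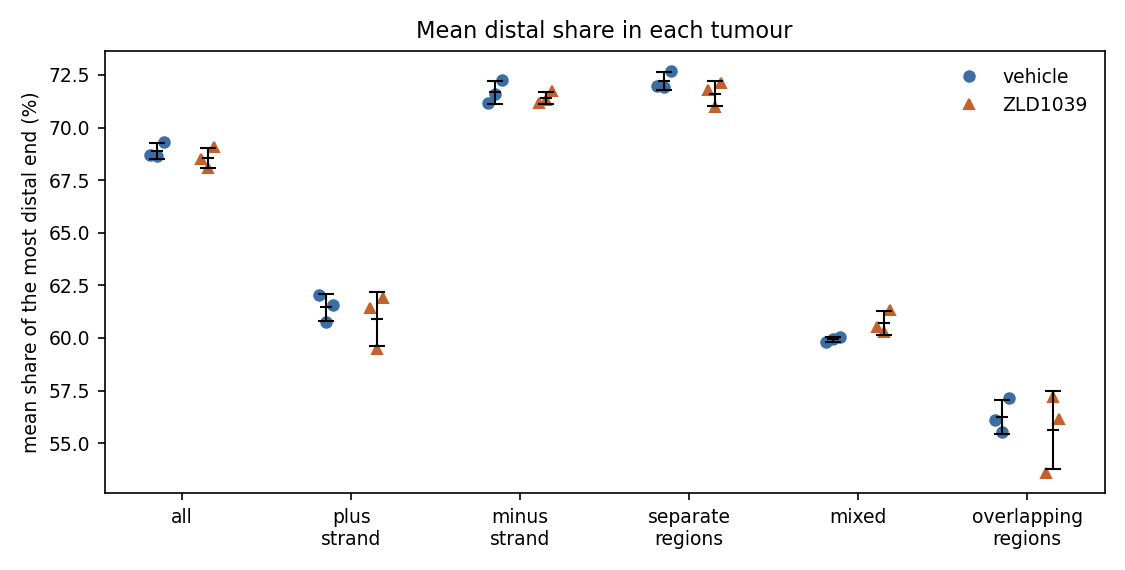
Mean share of the most distal end in percent for each tumour, over all 1939 loci and within classes of strand and overlap; circles are vehicle and triangles ZLD1039 tumours, and bars give the mean and SD of 3 tumours. The axis does not start at 0. The classes differ by more than 10 points, from 55.6% to 72.2%, while the groups within a class differ by less than 1 point.

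Locus by locus, limma with a mean-variance trend tested 1550 distal shares, those with a mean over 1% and under 99%. At an adjusted p under 0.05 it called 0 (0% of those tested), the smallest adjusted p being 0.119. At an unadjusted p under 0.05 there were 43 (2.77%). Of 4610 single ends with a mean share between 1% and 99%, 0 were called (0%), with 132 (2.86%) under an unadjusted 0.05 and a smallest adjusted p of 0.337. The median 95% interval of a distal share difference, without adjustment, reached 15.4 percentage points to either side. Smaller shifts at a typical locus were not detectable here. Far larger ones also went uncalled after adjustment, up to 91.8 points (limma adjusted p = 0.119). Distal shares were higher under ZLD1039 at 765 loci and lower at 785. They differed by over 20 points at 183 loci, of which 84 were higher and 99 lower. The groups did not overlap at 127 loci, or 8.19%, of which 58 were higher (3.74%) and 69 lower (4.45%). Among the single ends they did not overlap at 371, or 8.05%, of which 170 were higher (3.69%) and 201 lower (4.36%).

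**Figure D4:**
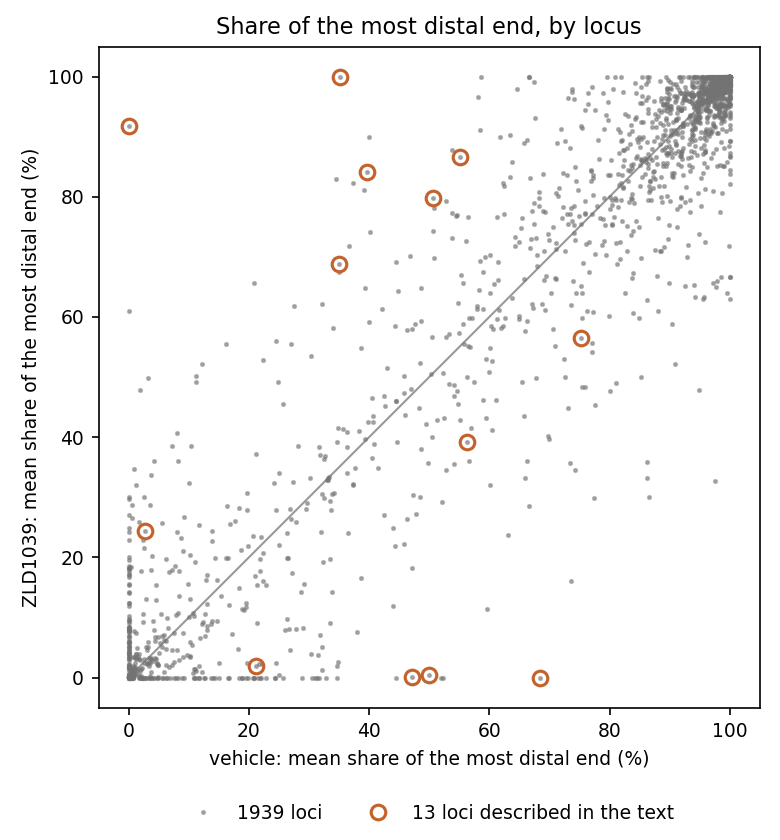
Mean share of the most distal end in vehicle tumours (horizontal axis, percent) against ZLD1039 tumours (vertical axis, percent) for 1939 loci; each point is 1 locus, the line marks equal shares, and circles mark 13 loci described in the text, chosen by these values. Most points lie near the line, and the circled loci lie farther from it, up to 91.8 points above.

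Among the 872 loci tested at 5 FPKM or more, the groups did not overlap at 31 with a higher and 35 with a lower distal share under ZLD1039. The 5 largest of these differences in each direction are given as a description, since they were chosen by that difference. Of those with a higher distal share, the minus-strand chromosome 19 locus is described further on and the other 4 here. On the plus strand of chromosome 19 the distal end at 13882935 to 13883680 measured 4.38, 2.33 and 3.03 FPKM in vehicle and 6.27, 18.4 and 13.5 FPKM in ZLD1039 tumours. An upstream end at 13879375 to 13879684 measured 5.55, 2.38 and 6.60 FPKM and then 3.26, 0.155 and 0.0427 FPKM. The distal share was 44.5 points higher (SE 14.3, limma adjusted p = 0.825), and the listed ends covered 22.01% of the locus. On the minus strand of chromosome 1 the distal end at 24290793 to 24294213 measured 10.4, 1.45 and 1.02 FPKM and then 12.8, 7.71 and 13.8 FPKM. Vehicle tumour 1 resembled the ZLD1039 tumours there, and the difference was 33.8 points (SE 15.4, limma adjusted p = 0.825).

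On the plus strand of chromosome 2 the distal end at 86440751 to 86440861 measured 15.7, 0 and 15.9 FPKM in vehicle and 17.7, 24.6 and 21.7 FPKM in ZLD1039 tumours. Its difference of 31.5 points rests on vehicle tumour 2, where the end was unlisted, and was 3.95 points with that tumour left out. On the minus strand of chromosome 6 a locus of 3 ends has a proximal end at 31321649 to 31322073 and a distal end at 31236526 to 31236950, both 425 bases long and 85123 bases apart. A shorter exon, at 31236526 to 31236813, stops at the same distal coordinate. The proximal end measured 33.1, 33.9 and 44.8 FPKM in vehicle and 0.862, 9.11 and 18.8 FPKM in ZLD1039 tumours, with no overlap, and the longer distal exon overlapped between the groups at 19.7 to 49.1 FPKM. The shorter distal exon measured 7.71, 8.35 and 8.57 FPKM and then 0, 0 and 4.08 FPKM, with no overlap. The share of the distal coordinate, both exons summed, was 29.2 points higher (SE 14.1, limma adjusted p = 0.825), and that of the longer exon was 39.8% ± 13.5 and 77.4% ± 19.4 (SD, n = 3 each). Whether these ends belong to 1 gene was not tested, nor whether reads from similar copies were divided between them.

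The largest lower distal share was in a locus of 7 ends on the minus strand of chromosome 1. Its distal end at 148002951 to 148004791 measured 5.26, 5.62 and 14.5 FPKM under vehicle and had no entry in the ZLD1039 tumours. The share of its most distal coordinate was 68.4 points lower (SE 8.67, limma adjusted p = 0.148), and the listed ends covered 51.0% of the locus, whose abundance was 16.6 FPKM under vehicle and 18.1 FPKM under ZLD1039. On chromosome 3 the regions of a pair of overlapping ends stop 14 bases apart. The distal one, at 52558403 to 52558627, measured 1.82, 35.6 and 8.88 FPKM in vehicle tumours and 0.00648, 0.00131 and 0.00544 FPKM in ZLD1039 tumours. The other, at 52558417 to 52558747, overlapped between the groups, at 6.63 to 13.8 and 9.65 to 19.5 FPKM. The distal share was 47.0% ± 30.2 and 0.0275% ± 0.0121 (SD, n = 3 each), and the limma adjusted p was 0.825. The difference of -47.0 points was -30.3 points without vehicle tumour 2.

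On chromosome 15 the distal end at 81239413 to 81241239 measured 0.279, 3.72 and 3.02 FPKM under vehicle and 0, 0.142 and 0 FPKM under ZLD1039. The proximal end at 81268095 to 81271818 measured 8.96, 0.234 and 0.0397 FPKM and then 8.77, 11.2 and 8.85 FPKM, so that vehicle tumour 1 again sided with the ZLD1039 tumours. The distal share differed by -49.5 points, or by -27.4 points without vehicle tumour 2. The remaining 2 of the loci described for a lower share had smaller differences. On the plus strand of chromosome 17, with the distal end at 7127799 to 7127979, the distal share was 21.2% ± 25.9 and 1.88% ± 0.614 (SD, n = 3 each). There vehicle tumour 1, with 0.284 FPKM in all, stood at 51.0%, and without it the difference was -4.46 points. On chromosome 7 the distal end at 73113536 to 73114814 measured 43.8, 36.7 and 65.6 FPKM under vehicle and 28.0, 20.6 and 23.1 FPKM under ZLD1039, and its share was 75.2% ± 13.0 and 56.5% ± 2.44 (SD, n = 3 each).

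The abundance of the ends was tested together with all other events on log2(FPKM + 1). In bulk tumours fewer cells of a type and less RNA per cell cannot be told apart. Of 2924 ends of these loci that passed the filter of 1 FPKM in the mean of a group, 1 was called by limma at an adjusted p under 0.05, against 30 of 82894 events of all types (0.0362%), of which 22 were higher (0.0265%) and 8 lower (0.00965%) under ZLD1039. An unadjusted p under 0.05 was found for 4.62% of the ends and 4.70% of all events. Groups did not overlap for 158 ends that were higher and 165 that were lower, 11.0% together, against 5.36% higher and 4.97% lower among all events, 10.3% together. The median log2 difference was 0.0033 for the ends and 0.014 for all events. The counts for ends thus lay near those of all events.

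The called end was in the locus ENSG00000104872 on the minus strand of chromosome 19. Its proximal end at 49950471 to 49950724, an exon of 254 bases, measured 25.9, 24.98 and 31.9 FPKM under vehicle. Its value was 0 in all 3 ZLD1039 tumours, the value also given to an end missing from a list. The difference was -4.83 on the log2(FPKM + 1) scale (SE 0.209, limma adjusted p = 0.00838). The 3 ZLD1039 values had an SD of 0, so the spread within groups at this end came from the vehicle tumours alone. No fold is given against values of 0. The distal end lies 916 bases further on, at 49949555 to 49949680, an exon of 126 bases. It measured 13.1, 12.5 and 19.9 FPKM in vehicle and 29.9, 43.3 and 25.7 FPKM in ZLD1039 tumours, with no overlap, and did not pass the test (limma adjusted p = 0.855). The proximal share was 66.5%, 66.6% and 61.6% under vehicle. The distal share was 64.9 points higher under ZLD1039 (SE 10.2, limma adjusted p = 0.333). The abundance of the whole locus was 47.3 ± 7.88 FPKM and 38.1 ± 9.92 FPKM (SD, n = 3 each; limma adjusted p = 0.881), so the groups overlapped in the abundance of the locus while they did not at either end. Without vehicle tumour 3 or without ZLD1039 tumour 2 the adjusted p of the proximal end was 0.0606 and 0.0536. The number of called ends was 2 without vehicle tumour 2 and 3 without ZLD1039 tumour 1.

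Among the loci themselves, 1 of 2647 tested was called, against 2 of 10834 loci of the series (0.0185%), both higher under ZLD1039 and none lower (0%). An unadjusted p under 0.05 was found for 5.02% of loci with several ends and 4.94% of all loci. Groups did not overlap for 130 loci that were higher and 142 that were lower, 10.3% together, against 5.75% and 5.2% of all loci, 10.9% together. The called locus, ENSG00000214253 on the minus strand of chromosome 7, had 20.7 ± 3.32 FPKM in the vehicle group and 73.1 ± 6.75 FPKM in the treated group (SD, n = 3 each; difference 1.78 on the log2 scale, limma adjusted p = 0.0480). Its listed ends were not higher in the same way. Their sum was 9.72, 17.5 and 20.4 FPKM in vehicle and 9.53, 13.9 and 8.22 FPKM in ZLD1039 tumours, and they covered 28.2% of the locus. The proximal end at 100877050 to 100877723 measured 1.16, 10.9 and 13.2 FPKM and then 0.339, 4.24 and 0.218 FPKM, and the distal end at 100875373 to 100875796 stayed between 6.60 and 9.64 FPKM. With any 1 tumour left out the locus was no longer called, with adjusted p of 0.0728 to 0.453.

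**Figure D5:**
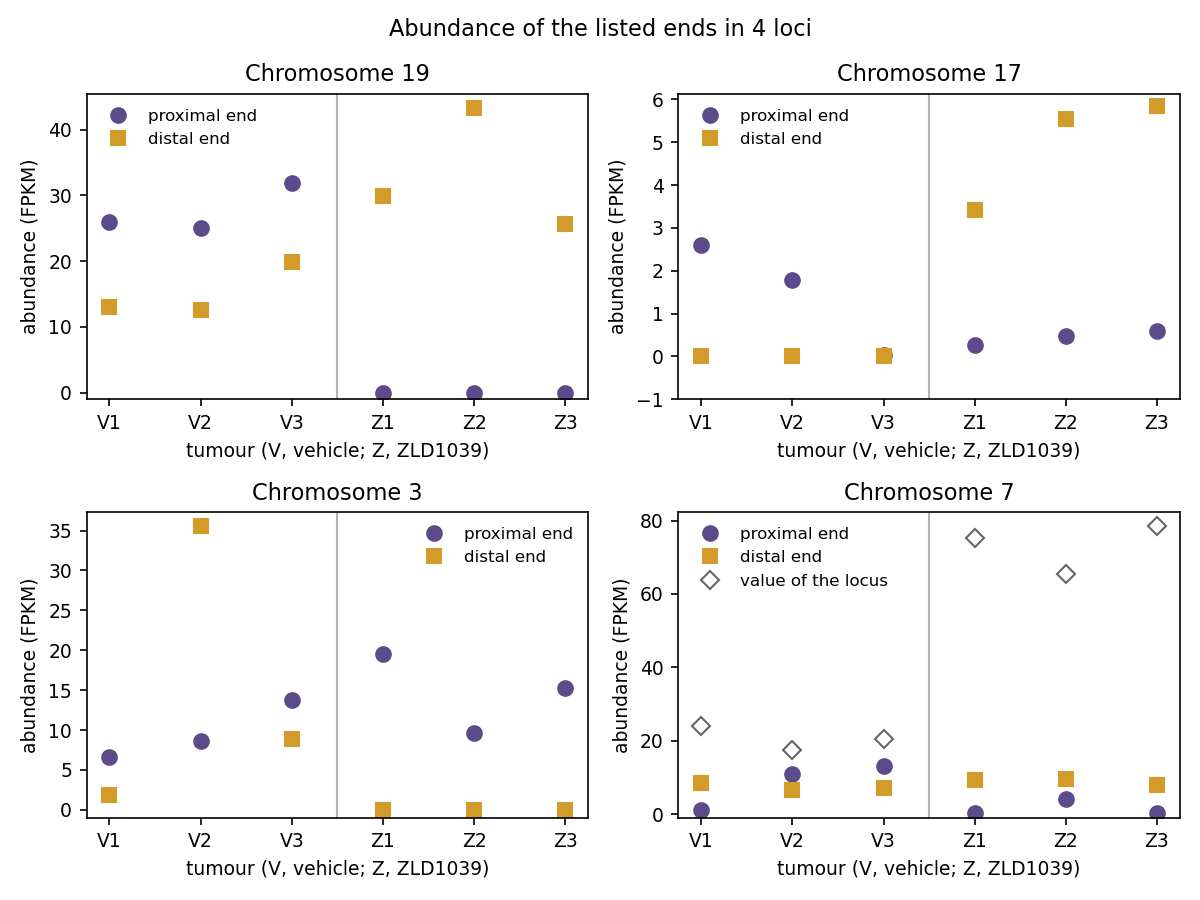
Abundance in FPKM of the proximal (circles) and distal (squares) end in each vehicle (V) and ZLD1039 (Z) tumour for 4 loci with 2 ends; open diamonds give the value of the whole locus on chromosome 7. The chromosome 19 proximal end is at 0 in the ZLD1039 tumours and the chromosome 17 distal end at 0 in the vehicle tumours, while on chromosome 7 the locus is higher under ZLD1039, at 73.1 against 20.7 FPKM on average, and its ends are not.

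An end listed above 0 in all tumours of 1 group and in none of the other was rare. Among the tested ends of these loci, 5 were listed in the vehicle group alone and 4 in the ZLD1039 group alone, or 0.171% and 0.137%. Among all tested events the shares were 0.233% and 0.199%. Besides the chromosome 19 and chromosome 1 ends given above, the most abundant was the distal end of a locus on the minus strand of chromosome 17, at 47778690 to 47780373. It was unlisted under vehicle and measured 3.42, 5.54 and 5.85 FPKM under ZLD1039 (limma adjusted p = 0.133). The proximal end of that locus, at 47781200 to 47781588, measured 2.61, 1.78 and 0.0429 FPKM and then 0.274, 0.474 and 0.594 FPKM. The distal share was 91.8 points higher (SE 9.93, limma adjusted p = 0.119), the largest difference among the 1550 loci tested, and the listed ends covered 29.1% of the locus.

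In 5 of the 2061 loci (0.243%) every vehicle tumour had 1 leading end and every ZLD1039 tumour another. The leading end under ZLD1039 was the more distal in 3 of them, on both strands of chromosome 19 and on the minus strand of chromosome 17, all given above. In the other 2 it was the more proximal. On the plus strand of chromosome 15 the ends at 42129266 to 42129650 and 42139847 to 42140338 were close to balance. The distal share was 51.3%, 55.9% and 61.8% under vehicle and 27.8%, 41.0% and 48.9% under ZLD1039. The last, on the plus strand of chromosome 17, had 5 ends, a mean of 1.12 FPKM and coverage of 10.8%. There the end at 73494710 to 73494801 led under vehicle with 64.9% ± 11.3 and the end at 73492363 to 73492472 under ZLD1039 with 63.6% ± 22.6 (SD, n = 3 each). The most distal of its ends, at 73494525 to 73494895, led in neither group, and its share was 21.6 points higher under ZLD1039, or 13.3 points without ZLD1039 tumour 3. The smallest adjusted p of an end share in these loci was 0.337 in limma. The count was 15, 12 and 14 without vehicle tumours 1, 2 and 3, and 13, 5 and 18 without ZLD1039 tumours 1, 2 and 3. With a tumour left out, fewer tumours need to share a leading end, which by itself lets the count rise. Loci in which 1 tumour had a leading end of its own were more frequent, with 32 to 41 such loci for each tumour and 212 in all.

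Abundant ends were at times missing from a list. Of 1059 ends in the compared loci that reached 10 FPKM in some tumour, 53 (5.00%) were unlisted in at least 1 other, and 48 of these were both unlisted and at 10 FPKM or more within 1 treatment group. Over all loci with several ends the share was 6.42%, against 3.19% of the ends of loci with a single end and 7.63% of events of all types. Shares of the 4610 ends correlated across ends between tumours with r of 0.820 to 0.856. Pairs within a group averaged 0.839, as did pairs between groups. ZLD1039 tumour 2 listed the fewest ends and had the lowest mean correlation, 0.827.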

How the data were processed

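The authors deposited, for each of 6 tumours, a list of transcript events with positions and an FPKM value per event, per the file headers. Per the submitters' processing notes, the tools included HTSeq 0.6.1 and bcl2fastq 2.17.1.14, and the build was mm10 of the mouse. The sources used here give no aligner, assembler or event caller. The chromosome numbers reach 22, past the 19 of mm10, so the positions are taken to be human, and no human genome, annotation or gene names were used here. Checks of the tumour type, of EZH2 and of lists of polyadenylation factors, which need gene names, were therefore not made. The loci, lists and tests were chosen with earlier results of these data known.

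Groups and replicate numbers came from the sample titles. Nothing in the labels states that the sequenced tumours of a group are from different mice, and p-values cover the spread among the tumours alone. Depth is unknown, and no count model was used. An event missing from a list was given 0. Proximal and distal followed the 3′ coordinate and the strand. Shares needed a mean of 1 FPKM in the summed ends and a sum above 0 in all tumours. End shares and distal shares, in percent, entered limma 3.58.1 (R 4.3.3) where their mean was over 1% and under 99%. Abundances entered as log2(FPKM + 1) where a group mean was at least 1 FPKM. Limma used its trend of variance on the mean, and p-values were adjusted by Benjamini-Hochberg over all features at 0.05. The log scale understates changes of low values. Means per tumour were compared by exact two-sided permutation. The fits were tested on simulated data. Loci were named if called, if among the 10 highest or the 5 with most ends, if their leading end differed between the groups, if their distal share differed most without overlap, or if their ends lay farthest apart; the called chromosome 7 locus was added after its values were seen. Alternatives changed the filter, pseudocount, share scale, trend, scaling, overlap handling, replicate block and tumours included.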

Additional observations from a re-analysis of the deposited data

How the results depend on the processing

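Called end shares numbered 0, but 2 as log2 ratios with a pseudocount of 0.5 or 0.1 and 7 without the trend. Called distal shares numbered 0, but 2 in loci of at least 5 FPKM, 1 with either log2 ratio and 4 without the trend. The minus-strand locus on chromosome 19 was among them each time, with adjusted p of 0.0346 at 5 FPKM, 0.000372 and 0.000697 as log2 ratios and 0.000557 without the trend. The chromosome 1 locus of 7 ends was called at 5 FPKM (limma adjusted p = 0.0306) and without the trend (0.00703). The minus-strand chromosome 17 locus was called without the trend (limma adjusted p = 5.42e-05). Without single tumours the called end shares and the called distal shares both numbered 0. Called ends by abundance numbered 0 to 3 without single tumours and 0 with a replicate block (smallest adjusted p 0.403). Called loci numbered 0 to 1 without single tumours, and 0 with a pseudocount of 0.1, no filter, median-of-ratios scaling, no trend or a replicate block (adjusted p 0.239 for chromosome 7). The sample titles do not state whether same-numbered tumours are paired. Deviations of same-numbered tumours correlated at -0.0056 to 0.0086, and those of other pairs at -0.0174 to 0.0162. Called shares numbered 0 with the block, but there were none to remove without it. At 5 FPKM the difference in mean distal share turned to 0.0749 points and that in end position to 0.00268. In overlapping regions the difference turned to 0.476 points without a minimum. Leaving out 1 tumour gave -1.70 to 0.302 points there, where it turned without ZLD1039 tumour 1, and -0.00459 to 0.000355 for end position, where it turned without vehicle tumour 3. Loci with different leading ends numbered 8 without a minimum and 2 at 5 FPKM. Without single tumours, where fewer tumours need to share a leading end, they numbered 5 to 18. In an alternative chosen after seeing the data, they numbered 2 where listed ends covered at least 80% of the locus. In the chromosome 17 locus of 5 ends the distal share turned from 21.6 to -33.3 points when overlapping regions were merged. The cause of these changes was not tested. Unknown depth, incomplete lists of ends and 3 tumours a group limit what could be detected.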
